A study of Mus musculus with 10 samples.

Results

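Collagen genes were described in cardiomyocytes, the muscle cells of the heart, carrying either dnMKL1 or a control virus. The members were the genes of the authors' deposited table whose symbol reads Col, a type number, a and a chain number, with a base mean above 0. They numbered 42 of 23337 genes in the table, and 1 further symbol of that form, Col6a5, was listed at 0. By class they comprised 11 fibrillar, 6 basement membrane, 3 network and 22 other collagens. The last class held the beaded filament, fibril-associated (FACIT), multiplexin, transmembrane, anchoring fibril and type XXVIII genes.

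All mice were wild type and received an AAV9 virus on postnatal day 1 at 5e+08 viral genomes per gram. The GFP group received AAV9-cTNT-GFP and the dnMKL1 group AAV9-cTNT-dnMKL1-GFP, where cTNT is the cardiac troponin T promoter, active in cardiomyocytes, and dnMKL1 is a dominant-negative form of MKL1, a coactivator of serum response factor. Cells were taken on postnatal day 14 by collagenase perfusion and fluorescence-activated sorting. Each group had 5 libraries, called biological replicates by the submitters, but the sources used here give neither the mice nor the litters behind each library, so p-values measure the spread between these libraries.

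Collagens are secreted proteins in which 3 chains wind into a triple helix. Fibrillar collagens (types I, III and V in most tissues) assemble into the banded fibrils of the interstitial matrix. Type IV collagen forms the sheet-like scaffold of basement membranes, which surround every cardiomyocyte and capillary. In the heart most fibrillar collagen is made by fibroblasts, while type VI, type XV and type IV collagens lie close to the muscle cell surface.

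The promoters of 4 members called higher are shown. Col1a2 and Col3a1 were among the most abundant fibrillar genes, and Col4a5 and Col4a6 are neighbouring basement membrane genes transcribed away from each other. Each sequence is the 250 bases before the RefSeq start of the gene (GRCm38.p6), 5′ to 3′ on the gene's own strand. Capitals mark TATAAA, an element of many promoters. They also mark CCAAT, which binds the factor NF-Y. Capitals further mark GGGCGG, the core of the GC box bound by Sp factors, which reads as its reverse complement upstream of Col4a6. The CArG box, which binds serum response factor, was searched by its usual consensus. All 4 motifs were searched on both strands.
Col1a2, chr6:4505368-4505617, plus strand: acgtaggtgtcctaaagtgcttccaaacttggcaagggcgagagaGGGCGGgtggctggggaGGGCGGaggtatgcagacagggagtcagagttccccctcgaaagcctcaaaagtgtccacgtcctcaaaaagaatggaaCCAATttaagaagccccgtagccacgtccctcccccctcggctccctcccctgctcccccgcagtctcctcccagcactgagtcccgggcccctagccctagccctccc
Col3a1, chr1:45311288-45311537, plus strand: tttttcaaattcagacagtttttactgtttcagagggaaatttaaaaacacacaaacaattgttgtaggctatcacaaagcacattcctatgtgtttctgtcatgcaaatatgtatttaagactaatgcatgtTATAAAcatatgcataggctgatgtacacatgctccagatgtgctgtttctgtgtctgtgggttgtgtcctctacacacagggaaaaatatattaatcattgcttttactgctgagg
Col4a5, chrX:141475169-141475418, plus strand: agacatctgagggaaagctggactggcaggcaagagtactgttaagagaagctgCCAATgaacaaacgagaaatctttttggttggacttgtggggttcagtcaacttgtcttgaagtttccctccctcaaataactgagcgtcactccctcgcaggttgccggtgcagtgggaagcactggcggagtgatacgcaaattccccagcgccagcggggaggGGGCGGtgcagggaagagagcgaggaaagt
Col4a6, chrX:141474077-141474326, minus strand: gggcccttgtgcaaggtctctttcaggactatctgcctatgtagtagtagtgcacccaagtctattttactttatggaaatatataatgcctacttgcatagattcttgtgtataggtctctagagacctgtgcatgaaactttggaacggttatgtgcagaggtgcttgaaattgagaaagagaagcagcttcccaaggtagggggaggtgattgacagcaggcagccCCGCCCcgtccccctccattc

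No CArG box was found in these 4 windows. The promoter table matched 34 of the 42 members with 37 windows, and 1 of those windows, at Col6a4, held a CArG box, compared with 1.47% of all 32851 windows of the same length. GGGCGG was found in 56.8% of the member windows and in 32.7% of all windows. CCAAT was found in 35.1% of the member windows against 33.8% of all, and TATAAA in 13.5% against 12.4%. Upstream of Col1a2, CCAAT began 109 bases before the start and GGGCGG began 205 and 188 bases before it. Upstream of Col3a1, TATAAA began 117 bases before the start. A match is only a match of letters in this window.

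The values available for each gene were the base mean (the mean over 10 libraries of reads divided by a size factor, in normalized counts), the log2 fold change of dnMKL1 against GFP and its standard error (SE). For 28 members the reads per library could also be reconstructed, where the search found exactly 1 set of whole reads that gave the deposited base mean, fold change and SE together. Those libraries are lettered a to e within each group in order of size factor and could not be matched to the submitters' replicate numbers. For the other 14 members, group means implied by the base mean and fold change are given, with no spread between libraries. Estimated library totals ran from 8.80303e+06 to 1.72286e+07 counts, and collagens made up 0.219% of the summed base means. Mkl1 had a log2 fold change of 9.80 (SE 0.15) in the authors' deposited table, and the direction of every comparison was read from that value.

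Among the collagens, 18 members were higher and 2 lower in the dnMKL1 group at an adjusted p under 0.05 in the authors' deposited table, out of 36 members with an adjusted p (Wald test, Benjamini-Hochberg adjustment over all genes tested). Over all 14056 genes with an adjusted p, 16.6% were called higher and 17.4% lower, 34.1% in all. The median log2 fold change over the 42 members was 0.65, and 35 of the 42 fold changes were positive. The median over all genes with an adjusted p was 0.02. With both groups scaled to the same total count 26 members were called higher and 0 lower. That scaling raises the log2 fold change of every gene by 0.29, collagen or not. The share of all genes called under it is not given here, so 26 and 0 have no matching background. Low genes leaned upward in the whole table: genes with base means from 10 to 100 had a median of 0.14 against 0.79 for the 11 members in that range, and genes below 10 had 0.23 against 1.26 for 14 members. Genes from 100 to 1000 had 0.01 against 0.64 for 7 members, and genes from 1000 upward had -0.15 against 0.23 for 4 members. Members that passed the authors' filter on low values do not stand for all 42.

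**Figure D1:**
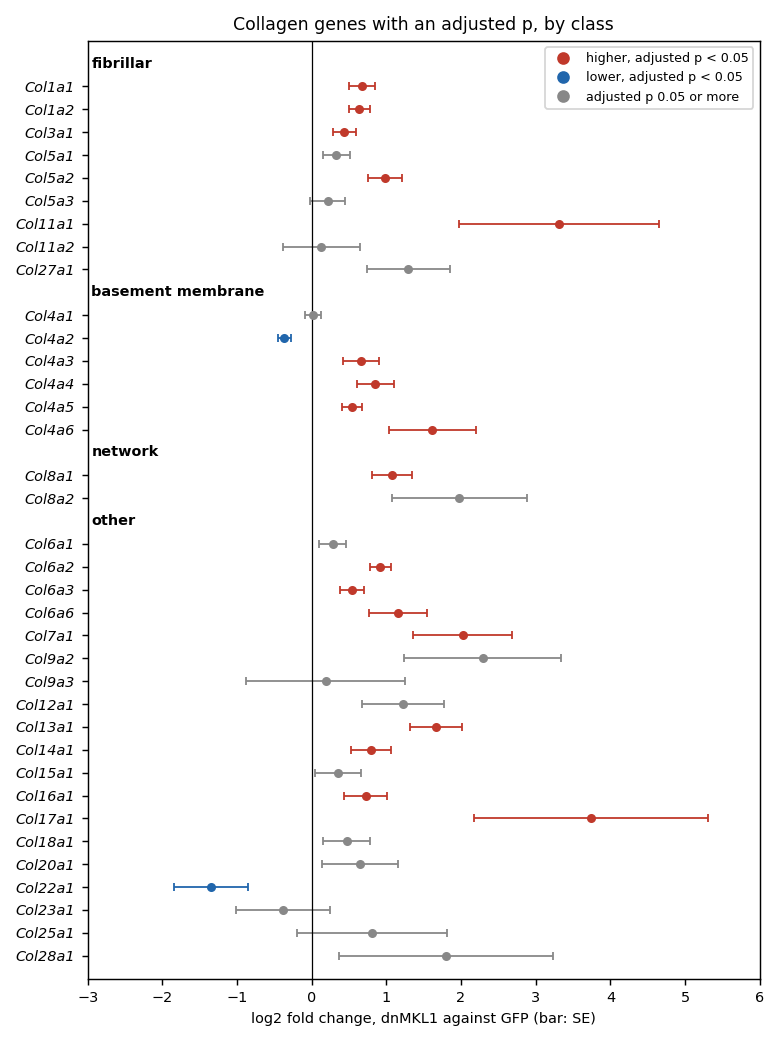
Log2 fold changes of the 36 collagen genes with an adjusted p in the authors' deposited table, on the horizontal axis, with bars of 1 SE, grouped by class. The 18 genes called higher include Col1a1 and Col6a2, and the 2 called lower are Col4a2 and Col22a1.

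Basement membrane genes made up most collagen transcript. Type IV genes took 82.1% of the collagen level per kilobase of longest transcript in the GFP group against 75.3% in the dnMKL1 group, while the fibrillar share was 13.1% and 17.61%. Col4a1 and Col4a2, which encode the chains of the common type IV trimer, had 1478 and 1401 normalized counts per kilobase in the GFP group. Col4a5, a chain of the less common type IV trimers, followed at 443, and Col3a1 at 348. All other members were at 70.8 per kilobase or less in that group. In normalized counts, the sum over the type IV genes was 21795 in the GFP group against 21266 in the dnMKL1 group, and that over the fibrillar genes 3032 and 4342. These shares come from group means and were not tested.

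**Figure D2:**
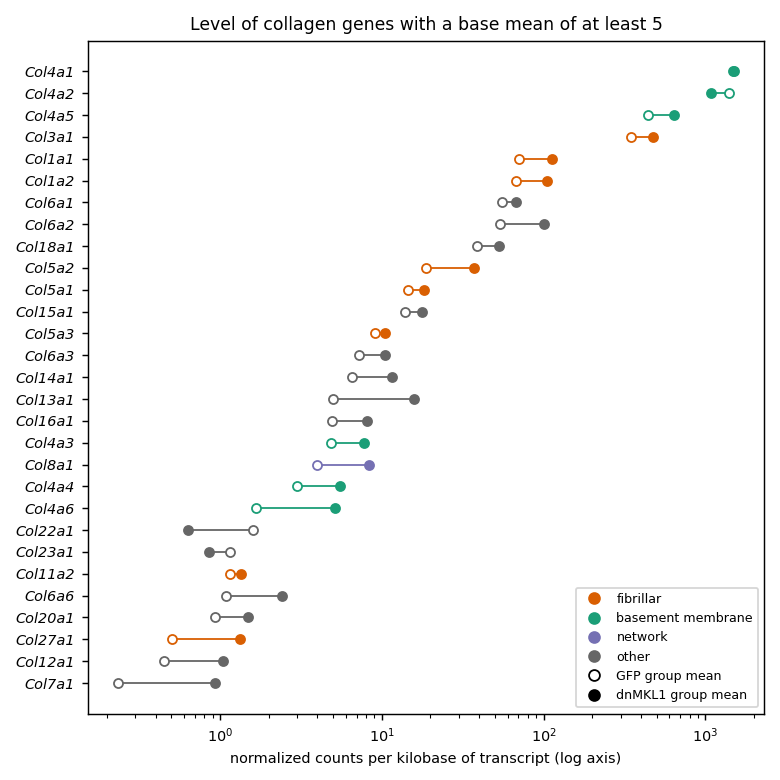
Group mean levels in normalized counts per kilobase of transcript (log axis) for the collagen genes whose base mean reached 5, open circles for GFP and filled circles for dnMKL1, coloured by class. Col4a1, Col4a2 and Col4a5 head the order, and the circles of Col4a1 nearly coincide.

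Type IV genes did not move as 1 group: 4 of 6 were higher, 1 was lower and 1 was not called. Over all genes with an adjusted p, 16.6% were called higher and 17.4% lower. Among those with a base mean from 1000 upward, where Col4a1, Col4a2 and Col4a5 lie, 13.7% were higher and 42.1% lower. Col4a1 had implied means of 9779.85 and 9905 normalized counts in the GFP and dnMKL1 groups. The authors' deposited table gave it a log2 fold change of 0.02 (SE 0.10), a 95% interval from -0.18 to 0.22 and an adjusted p of 0.924. Col4a2 fell by 0.37 on the log2 scale (SE 0.09, adjusted p = 3.0e-04 in the authors' deposited table), from an implied 9034 to 7002 normalized counts. The level ratio of Col4a1 to Col4a2 per kilobase was 1.06 in the GFP group against 1.38 in the dnMKL1 group. That difference between the 2 genes was not tested. With both groups scaled to the same total count, which raises every log2 fold change by 0.29, Col4a2 was at -0.08 with a recomputed adjusted p of 0.498 and its call was lost, while Col4a1 was at 0.31 and was called higher.

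Col4a1 and Col4a2 lie head to head on chromosome 8 (GRCm38, GENCODE), with starts at 11312826 on the minus strand and 11312805 on the plus strand, so that their first exons overlap by 22 bases. The overlap covers 0.295% of the exon bases of Col4a1 and 0.332% of those of Col4a2. Reads from those bases cannot be assigned without strand, and the use of strand in counting was not given in the sources used here.

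The other 2 head-to-head pairs of type IV genes were higher in both partners. Col4a5 rose by a log2 fold change of 0.54 (SE 0.14, adjusted p = 5.9e-04 in the authors' deposited table), from an implied 2898 to 4203 normalized counts. Col4a6, its neighbour on the X chromosome, had a log2 fold change of 1.62 (SE 0.58, adjusted p = 0.0196 in the authors' deposited table). Its implied means were only 11.1 and 34.1 normalized counts, so Col4a5 exceeded Col4a6 by 265 times per kilobase in the GFP group against 125 times in the dnMKL1 group. On chromosome X 1308 bases lie between the annotated starts of this pair.

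Col4a3 and Col4a4, chains that join Col4a5 in specialised basement membranes, have 71 bases between their starts on chromosome 1. For Col4a4 the GFP libraries a to e had 19.7, 39.3, 28.8, 23.8 and 39.7 normalized counts, and the dnMKL1 libraries had 59.3, 68.0, 61.9, 42.1 and 45.6. The groups did not overlap, with means of 30.2 ± 9.03 and 55.4 ± 11.04 (SD, n = 5 each). The log2 fold change of Col4a4 was 0.85 (SE 0.25, adjusted p = 0.0030 in the authors' deposited table). Col4a3 had 28.8, 61.9, 31.6, 32.8 and 53.7 normalized counts in the GFP libraries and 65.5, 73.7, 79.2, 58.1 and 54.5 in the dnMKL1 libraries. GFP library b lay above 2 dnMKL1 libraries, so the groups overlapped, and the log2 fold change of 0.66 (SE 0.24) had an adjusted p of 0.0212 in the authors' deposited table. Both genes were highest among GFP libraries in b and e. The call of Col4a3 was lost without GFP library a, c or d or dnMKL1 library c, at log2 fold changes from 0.57 to 0.59, and that of Col4a4 held with each library left out.

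Of the 11 fibrillar genes, 9 had an adjusted p, 5 were higher and none was lower. Col1a1 and Col1a2, the chains of type I collagen, rose together: their log2 fold changes in the authors' deposited table were 0.67 (SE 0.17, adjusted p = 5.7e-04) and 0.64 (SE 0.14, adjusted p = 5.8e-05). Their implied means went from 420 to 670 normalized counts for Col1a1 and from 360 to 560 for Col1a2, and their level ratio per kilobase was 1.052 in the GFP group against 1.08 in the dnMKL1 group. Col3a1, the type III chain and the most abundant fibrillar gene, had implied means of 1937 and 2625 normalized counts. Its log2 fold change was 0.44 (SE 0.15, adjusted p = 0.0149 in the authors' deposited table). Beside these genes, 3 of 12 fibroblast markers were higher and 0 lower, against 16.6% and 17.4% of all genes with an adjusted p. The part of fibroblasts in the result was not tested.

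Type V collagen, which sits inside type I fibrils and limits their width, was split between its chains. Col5a2 had 118, 106, 106, 147 and 146 normalized counts in GFP libraries a to e and 379, 187, 155, 268 and 248 in dnMKL1 libraries a to e. Every dnMKL1 library lay above every GFP library, and the spread was wider in the dnMKL1 group (247 ± 86.6 against 125 ± 20.8, SD, n = 5 each). The log2 fold change of Col5a2 was 0.98 (SE 0.23, adjusted p = 1.2e-04 in the authors' deposited table). Col5a1 had 0.33 (SE 0.18, adjusted p = 0.145) and Col5a3 had 0.21 (SE 0.23, adjusted p = 0.543) in the authors' deposited table. The 95% intervals of their log2 fold changes ran from -0.02 to 0.68 and from -0.24 to 0.67. The difference between Col5a2 and Col5a1 was not tested.

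The remaining fibrillar genes were low. Col11a1, a cartilage-type fibril chain, had 1 read in all GFP libraries together and 15 in the dnMKL1 libraries, of which 7 were in library a. The ratio of reads per size factor was 13.2, with an exact 95% interval from 2.03 to 556 that covers counting error only. Its adjusted p in the authors' deposited table was 0.0414, and the log2 fold change was 3.31 (SE 1.34). The call was lost without dnMKL1 library a, at 2.45, and without GFP library b, c, d or e, at 3.05 to 3.29. Col27a1 had a log2 fold change of 1.29 (SE 0.56, adjusted p = 0.0567 in the authors' deposited table), with 3.85 ± 2.73 normalized counts in the GFP libraries and 10.1 ± 3.67 in the dnMKL1 group (SD, n = 5 each). Col11a2 had 0.13 (SE 0.52, adjusted p = 0.892) in the authors' deposited table. Col2a1 with 6 reads and Col24a1 with 10 reads over all libraries had no adjusted p.

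Network collagens were scarce. Col8a1, a type VIII chain of vessel walls and the subendothelial matrix, had 19.7, 18.1, 25.1, 22.98 and 15.6 normalized counts in the GFP libraries and 37.1, 46.5, 28.2, 47.9 and 52.6 in the dnMKL1 libraries. The groups did not overlap, and the log2 fold change was 1.08 (SE 0.26, adjusted p = 3.2e-04 in the authors' deposited table). Its partner Col8a2 had means of 1.75 ± 2.34 and 7.499 ± 5.77 normalized counts (SD, n = 5 each). The log2 fold change of Col8a2 was 1.98 (SE 0.90, adjusted p = 0.0768 in the authors' deposited table). Col10a1, the hypertrophic cartilage collagen, had 6 reads in all and no adjusted p.

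Type VI collagen, which forms beaded filaments next to the muscle basement membrane, held the member with the smallest adjusted p. Col6a2 had 204, 282, 217, 283 and 325 normalized counts in GFP libraries a to e and 476, 487, 422, 547 and 555 in dnMKL1 libraries a to e. All dnMKL1 libraries lay above all GFP libraries, and the log2 fold change was 0.92 (SE 0.14, adjusted p = 2.5e-09 in the authors' deposited table). Col6a1, which encodes its partner chain and lies near it on chromosome 10 (GRCm38, Col6a2 from 76595762 to 76623630 and Col6a1 from 76708792 to 76726168), had 207, 171, 198, 298 and 258 normalized counts in the GFP libraries and 220, 348, 213, 290 and 307 in the dnMKL1 libraries. These values overlapped, and the log2 fold change of 0.28 (SE 0.19) had an adjusted p of 0.263 and a 95% interval from -0.09 to 0.64 in the authors' deposited table.

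The level ratio of Col6a1 to Col6a2 per kilobase was 1.03 in the GFP group against 0.664 in the dnMKL1 group. The difference between the 2 fold changes was -0.64 on the log2 scale and was not tested. Col6a3, the longest of the main type VI chains, had 72.7, 69.5, 73.3, 69.0 and 81.0 normalized counts in the GFP libraries and 93.9, 124, 80.3, 109 and 124 in the dnMKL1 libraries. Only dnMKL1 library c lay below the highest GFP library, and the log2 fold change of Col6a3 was 0.54 (SE 0.16, adjusted p = 0.0041 in the authors' deposited table). Col6a6 had 1.16 (SE 0.39, adjusted p = 0.0117) in the authors' deposited table at a base mean of 15.4. Col6a4 had 1 read in all.

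**Figure D3:**
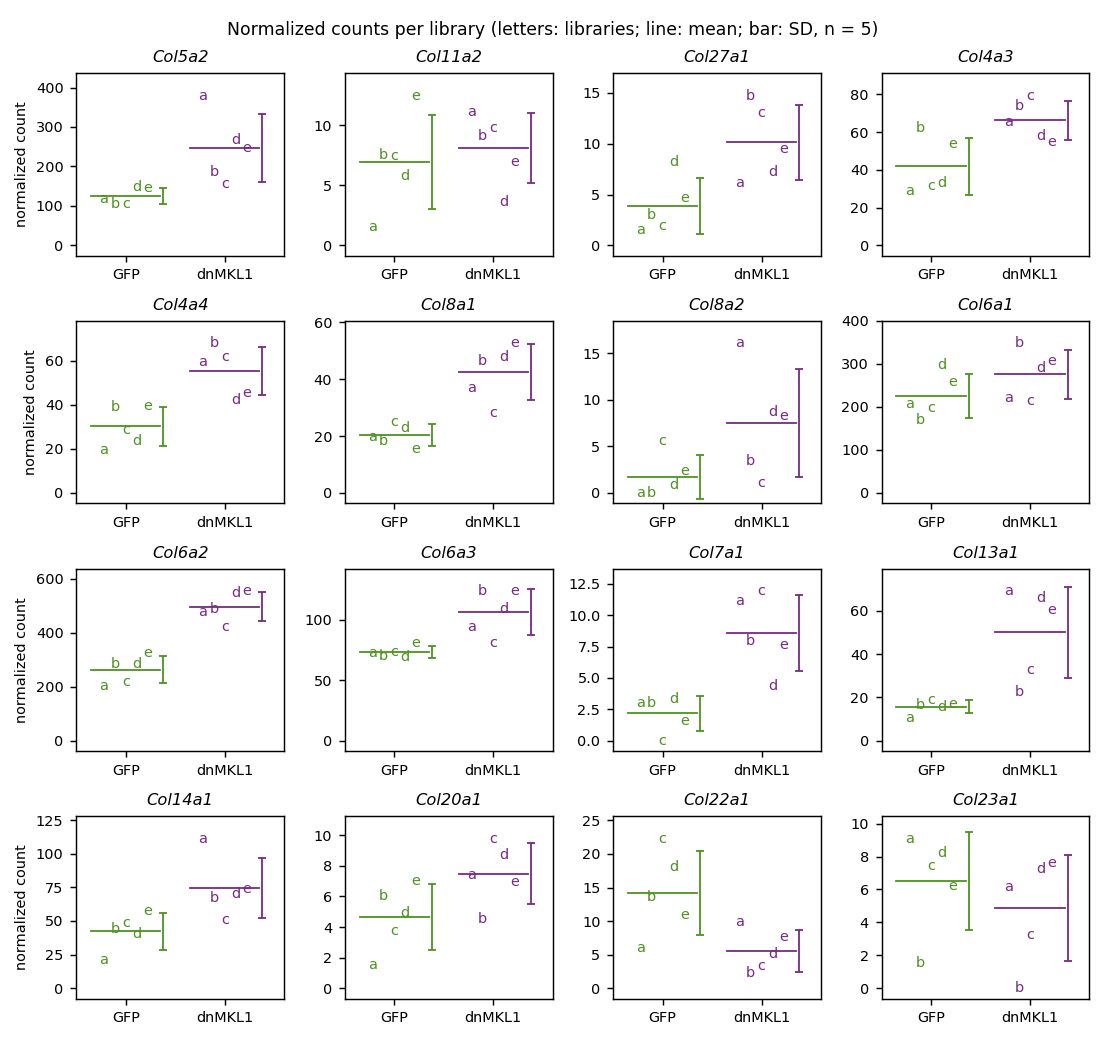
Normalized counts of the 16 reconstructed collagen genes with at least 50 reads, on the vertical axis, by group, with each letter a library, the line the group mean and the bar its SD (n = 5). The groups do not overlap for 6 of the 16 genes, Col5a2, Col4a4, Col8a1, Col6a2, Col7a1 and Col13a1. Over all genes with an adjusted p 34.1% were called, which is a different measure. The share of all genes without overlap is not known here, since reads were reconstructed for chosen genes only.

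Among transmembrane collagens, Col13a1, which is known at the neuromuscular junction and at cell adhesions, was separated between the groups. Its GFP libraries had 10.6, 16.6, 18.6, 15.6 and 17.1 normalized counts and its dnMKL1 libraries 69.2, 22.7, 32.6, 66.1 and 60.2. The dnMKL1 values fell into a lower pair, b and c, and 3 higher ones, all above the GFP libraries. The log2 fold change was 1.67 (SE 0.35, adjusted p = 1.7e-05 in the authors' deposited table), and it stayed between 1.54 and 1.85 with any 1 library left out.

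Col17a1, the hemidesmosome collagen of epithelia, had no read in any GFP library and 6, 0, 3, 2 and 2 reads in dnMKL1 libraries a to e. The reads of the dnMKL1 group per summed size factor were 3.82 times the level that a floor of 3 reads over the GFP group gives. The exact 95% interval of the ratio, which also counts the error of the 13 dnMKL1 reads, starts lower, at 2.68, and covers counting error only. The log2 fold change was 3.74 (SE 1.57, adjusted p = 0.0495 in the authors' deposited table). The call was lost without any of the 5 GFP libraries, at 3.63 to 3.87, without dnMKL1 library c, at 3.65, and without dnMKL1 library a, at 2.93. Col23a1 had a log2 fold change of -0.39 (SE 0.63, adjusted p = 0.711) and Col25a1 of 0.81 (SE 1.01, adjusted p = 0.603) in the authors' deposited table.

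Col7a1, the anchoring fibril collagen of skin, had 3.03, 3.02, 0, 3.28 and 1.56 normalized counts in the GFP libraries and 11.1, 7.93, 11.9, 4.36 and 7.60 in the dnMKL1 libraries. The groups did not overlap although the gene had only 55 reads in all, and its log2 fold change was 2.02 (SE 0.66, adjusted p = 0.0092 in the authors' deposited table).

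FACIT collagens, which attach to fibril surfaces, moved in both directions. Col14a1 had 21.2, 43.8, 48.3, 40.2 and 57.6 normalized counts in the GFP libraries and 111, 66.9, 51.0, 69.7 and 74.1 in the dnMKL1 libraries. The groups overlapped at GFP library e and dnMKL1 library c, and the log2 fold change was 0.79 (SE 0.27, adjusted p = 0.0113 in the authors' deposited table). Without GFP library a it was 0.64 and without dnMKL1 library a 0.62, and both missed the authors' p limit. Col16a1 had 0.72 (SE 0.29, adjusted p = 0.0365) in the authors' deposited table.

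Col22a1, a collagen of the junction between muscle and tendon, was the FACIT gene called lower. Its GFP libraries had 6.06, 13.6, 22.3, 18.1 and 10.9 normalized counts and its dnMKL1 libraries 9.88, 2.27, 3.26, 5.08 and 7.60. GFP library a, the lowest of its group, lay below dnMKL1 libraries a and e, so the groups overlapped. The log2 fold change was -1.35 (SE 0.49, adjusted p = 0.0215 in the authors' deposited table), and it missed the authors' p limit without GFP library c or d or dnMKL1 library b or c, at values from -1.25 to -1.13. With both groups scaled to the same total count it was at -1.06 with a recomputed adjusted p of 0.0644.

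The other FACIT genes with an adjusted p were not called. In the authors' deposited table Col12a1 had a log2 fold change of 1.23 (SE 0.55, adjusted p = 0.0684) and Col9a2 had 2.29 (SE 1.054, adjusted p = 0.0799). Col20a1 had 0.65 (SE 0.51, adjusted p = 0.365) and Col9a3 had 0.19 (SE 1.06, adjusted p = 0.924) there. Col9a1 with 2 reads and Col19a1 with 1 read had no adjusted p.

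The multiplexins, which carry heparan or chondroitin sulfate and release anti-angiogenic fragments, were not called. Col18a1 had implied means of 216 and 298 normalized counts and a log2 fold change of 0.47 (SE 0.31, adjusted p = 0.259) in the authors' deposited table. Col15a1 had 0.35 (SE 0.30, adjusted p = 0.410) there. The SE implied a replicate coefficient of variation of 33.3% for Col18a1 and 31.1% for Col15a1, against 11.3% for Col4a1 and 9.81% for Col4a2. Col28a1 had 25 reads in all, 13 of them in dnMKL1 library d, and an adjusted p of 0.367.

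Over the 16 reconstructed members with at least 50 reads, GFP library a had the lowest normalized count of its group for 10. In the dnMKL1 group library a was the highest for 6 of the 16, among them Col5a2, Col13a1, Col14a1 and Col8a2, and library c was the lowest for 7. Neither held for every member: dnMKL1 library a was the lowest for Col27a1.

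Genes that modify and process procollagen were mixed. Of 28 genes, 27 had an adjusted p, 7 were higher and 6 lower in the authors' deposited table, with a median log2 fold change of -0.01 over the list. Over all genes with an adjusted p, 16.6% were called higher and 17.4% lower. Scaled to the same total count, which raises every log2 fold change, 12 were higher and 3 lower, with no share of all genes given for that scaling. Leprel1 (now P3h2), a prolyl 3-hydroxylase of type IV collagen, rose by 3.02 (SE 0.55, adjusted p = 4.8e-07), and Bmp1, the procollagen C-proteinase, by 0.59 (SE 0.10, adjusted p = 1.4e-07) on the log2 scale in the authors' deposited table. Fkbp10, a chaperone of type I collagen, fell by 0.98 (SE 0.13, adjusted p = 6.4e-13) and Leprel4, a component of the lysyl hydroxylation machinery, fell by 0.68 (SE 0.12, adjusted p = 6.2e-07) there. Glt25d1 (now Colgalt1), a galactosyltransferase of collagen, fell by 0.33 (SE 0.06, adjusted p = 2.1e-06) there.

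Of the 3 N-proteinases of procollagen in the list, 1 was lower, 1 higher and 1 not called. Adamts2 had a log2 fold change of 0.24 (SE 0.20, adjusted p = 0.376) in the authors' deposited table. Adamts3 fell by 0.95 (SE 0.14, adjusted p = 1.2e-09) in the authors' deposited table. Adamts14, chosen after its values were seen, had 0, 3.02, 0.928, 2.46 and 3.11 normalized counts in the GFP libraries and 21.003, 6.80, 14.1, 19.6 and 13.9 in the dnMKL1 libraries. Those groups did not overlap, and the log2 fold change of Adamts14 was 2.91 (SE 0.62, adjusted p = 2.1e-05 in the authors' deposited table). The most abundant genes of the list were Serpinh1, the collagen chaperone HSP47, with 0.25 (SE 0.09, adjusted p = 0.0166), and P4hb, a subunit of prolyl 4-hydroxylase, with 0.26 (SE 0.07, adjusted p = 4.3e-04), as log2 fold changes in the authors' deposited table.

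Of 25 genes for collagen receptors, crosslinking and turnover, 21 had an adjusted p, 9 were higher and 0 lower in the authors' deposited table, where 16.6% of all genes with an adjusted p were higher and 17.4% lower. The authors' test gave 11 genes of the list an unadjusted p under 0.05 in either direction. The median log2 fold change of the list was 0.55. When both groups were scaled to the same total count, which raises every log2 fold change, 16 genes were higher. No share of all genes is given for that scaling. Of the 5 lysyl oxidases, which crosslink fibrils, 3 were higher: Loxl1 rose by 1.31 (SE 0.19, adjusted p = 1.8e-10), Loxl4 by 1.78 (SE 0.30, adjusted p = 7.0e-08) and Loxl2 by 2.03 (SE 0.44, adjusted p = 3.4e-05) in the authors' deposited table. Of the turnover genes, Timp3, a matrix metalloproteinase inhibitor, rose by 0.95 (SE 0.17, adjusted p = 2.3e-07) and Ctsk, a collagen-cleaving cathepsin, by 1.18 (SE 0.23, adjusted p = 4.8e-06) there. Mmp14, a membrane-bound collagenase, rose by 0.85 (SE 0.23, adjusted p = 0.0014) there. Mmp9, a gelatinase with a base mean of only 3.18, rose by 3.74 (SE 1.12, adjusted p = 0.0038), and Timp2, the most abundant turnover gene, had 0.19 (SE 0.11, adjusted p = 0.157) there.

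Of the 9 receptor genes 7 had an adjusted p, and 2 were higher and 0 lower. Of all genes with an adjusted p, 16.6% were higher and 17.4% lower. Ddr1, a receptor kinase for collagens, rose by 0.42 (SE 0.13, adjusted p = 0.0068) and Itga10, a collagen-binding integrin chain, by 1.72 (SE 0.55, adjusted p = 0.0070) in the authors' deposited table. The most abundant receptor, Itgb1, had a log2 fold change of -0.03 (SE 0.08, adjusted p = 0.817) there.

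**Figure D4:**
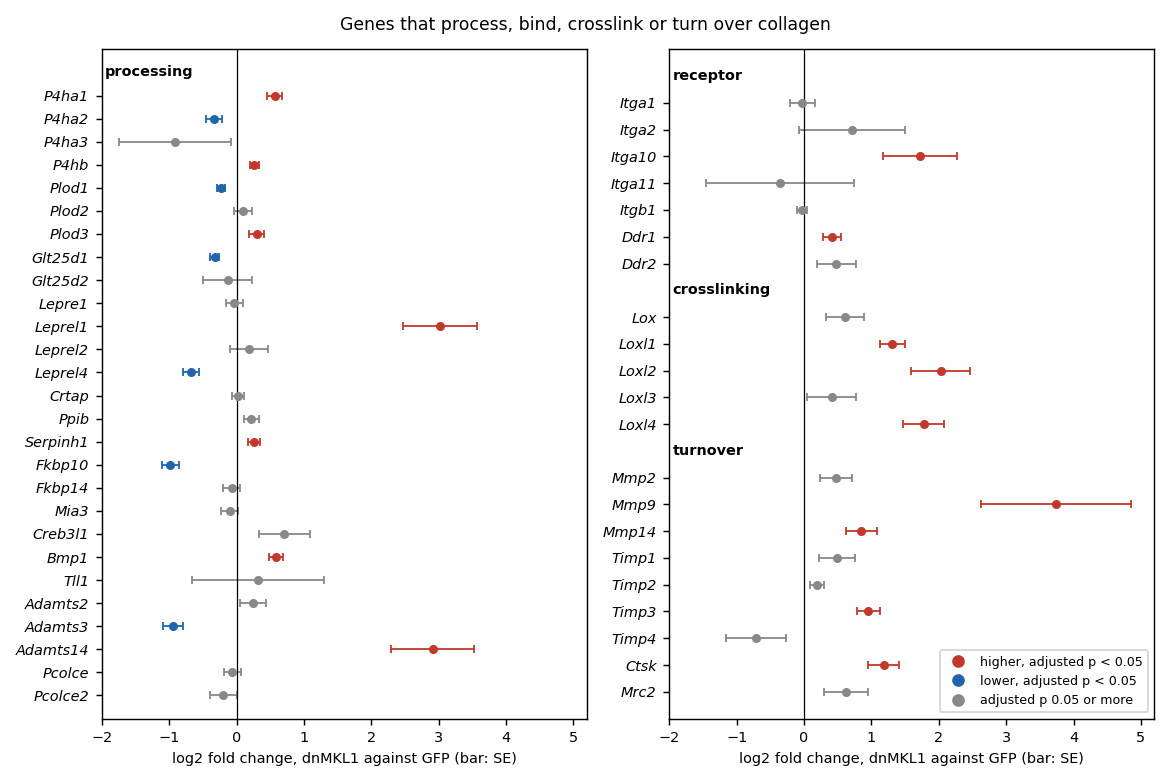
Log2 fold changes, with bars of 1 SE, of the processing genes (left) and the receptor, crosslinking and turnover genes (right) with an adjusted p in the authors' deposited table. Loxl1, Loxl2 and Loxl4 lie above 1, and the processing genes spread to both sides of 0.

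Markers of other cell types were read beside these results, since fewer cells of a type and less RNA per cell cannot be told apart in bulk libraries. All 8 cardiomyocyte markers were abundant, with base means from 10438 to 594986, and 5 of them were lower and 0 higher in the dnMKL1 group. Of all genes with a base mean from 1000 upward, 42.1% were called lower. Of 12 fibroblast markers that are not collagens, 3 were higher, 0 were lower, 9 were not called and none was at 0, and their summed implied means were 2776 normalized counts in the GFP group against 5471 in the dnMKL1 group. Those 3 were Gsn, Fbln1 and Vim. Without Gsn and Fbln1 the other 10 markers summed to 1152 and 1577. The authors' test gave 5 of the 12 an unadjusted p under 0.05, all 12 fold changes were positive, and their median log2 fold change was 0.49.

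The other 9 fibroblast markers were not called. In the authors' deposited table Pdgfra stood at a log2 fold change of 0.06 (SE 0.25, adjusted p = 0.893), Dcn at 0.27 (SE 0.16, adjusted p = 0.211) and Lum at 0.25 (SE 0.20, adjusted p = 0.353). Lum had 89.3, 74.0, 84.5, 144 and 115 normalized counts in the GFP libraries and 116, 134, 96.6, 136 and 127 in the dnMKL1 libraries. Tcf21 had 6.06, 6.04, 3.71, 10.7 and 4.67 in the GFP libraries and 11.1, 9.07, 3.26, 11.6 and 17.7 in the dnMKL1 libraries. Both genes overlapped between the groups. Tcf21 had a log2 fold change of 0.79 (SE 0.52, adjusted p = 0.261), Postn 0.51 (SE 0.23, adjusted p = 0.0730), Ddr2 0.48 (SE 0.29, adjusted p = 0.210) and Lox 0.61 (SE 0.28, adjusted p = 0.0802) in the authors' deposited table. Dpt had 0.25 (SE 0.27, adjusted p = 0.545) and Mfap5 0.02 (SE 0.24, adjusted p = 0.958) there. The part of fibroblast RNA in the collagen values was not tested.

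Of 8 endothelial markers 0 were called either way, with 0 at an unadjusted p under 0.05 in the authors' test, and their summed implied means were 2832 and 2924 normalized counts in the GFP and dnMKL1 groups. Of 9 mural markers 3 were higher and 1 lower, with sums of 18254 and 15947. Acta2 and Abcc9 held most of both sums, and which cells made their RNA was not tested. The lower gene was Acta2, with implied means of 10454 and 4999, and the other 8 all had positive fold changes and summed to 7799.7 and 10949. Most of that rise lay in Abcc9 (6332 and 7773, not called) and Cspg4 (501 and 2019, called higher). Rgs5, Kcnj8 and Pdgfrb had log2 fold changes of 0.01, 0.03 and 0.18 and were not called. Of 6 macrophage markers 1 was higher and 0 lower (138 and 123). Among 4 Schwann and glial markers 3 had an adjusted p, and 1 was higher and 0 lower (34.8 and 49.5). Of 4 epicardial markers 0 were called, with 0 at an unadjusted p under 0.05 in the authors' test (47.2 and 49.1). Over all genes with an adjusted p, 16.6% were called higher and 17.4% lower. The part of these cell types in the collagen values was not tested.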

How the data were processed

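RNA of 10 libraries (5 GFP, 5 dnMKL1) was sequenced from sorted mouse cardiomyocytes after SMART-Seq cDNA synthesis and Nextera XT library preparation, per the labels' protocols. Per the submitters' processing notes, CASAVA 1.8, STAR 2.5.3a, featureCounts and Subread 1.5.2 were used with genome build mm10. Annotation and strand use in counting are not given in the sources used here. The authors' own comparison was analysed, whose columns are those that DESeq2 writes. In the deposited table the base mean is a signal in normalized counts, and the fold change and SE are log2 values. The Wald statistic, a score, equals the ratio of those deposited columns (largest gap 1.14e-05). The deposited adjusted p-value covers 14056 genes and equals a Benjamini-Hochberg adjustment of the p-values within 1.44e-07. The planned count test needs values per library for all genes and was not run, so calls are the authors'.

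Size factors (0.660 to 1.58) came from genes holding a single read, which also show the group of their library. Whole reads were then sought for which a negative binomial fit, with fitted means floored at 0.5 and the dispersion solved from the SE, gave the deposited base mean, fold change and SE to their 7 or 15 printed digits. A gene was kept where exactly 1 set matched. Low genes were searched in full and others within a bounded region around the group means, so that for Col6a2 and Col6a1 0.048 and 0.011 matches were expected by chance. On simulated data of 16 genes the search found the true reads in 16 and wrong reads in 0. Of the 42 members 28 were recovered. For recovered members whose base mean reached 5, implied and recovered group means differed by 5.17% at most. Fits leaving out a library held the dispersion and were set against the largest deposited p that was called (0.0170).

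Every member with an adjusted p is named, and, for each of the processing, receptor, crosslinking and turnover lists, up to 6 called genes in order of p and the 2 most abundant. Marker genes named singly were chosen after their values were seen. Members, classes and lists were chosen with earlier results of these data known. Lengths and coordinates are from GENCODE M21 (GRCm38), in which all 42 members matched, and promoters from RefSeq (GRCm38.p6). Of the list genes 6 were matched by an older symbol. Exons of 13 members overlap another gene, by 6.07% of exon bases at most (Col9a3). Intervals on reads are exact at 95% and, like floors of 3 reads, cover counting error only, since reads carry no molecular identifiers. Alternatives were other thresholds, filters, scalings, classes, lengths and sets of libraries. Python 3.11.15, numpy 2.4.6, scipy 1.17.1 and numba 0.67.0 were used.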

Additional observations from a re-analysis of the deposited data

Results flagged for a closer look

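In 53 groups of 5 libraries with recovered reads, the highest library stood apart from the others in 9, by Dixon's test at 95%. For normally distributed values chance flags about 1 in 20 groups, or 2.65 here. In 7 of the 9 the other 4 libraries were at 0. Any read in 1 library alone is then flagged, so 2.65 is not the number expected for such low counts. The normalized count of that library was 0.778 for Col9a1 and for Col2a1 in the GFP group, 1.51 for Col11a1 and 0.928 for Col6a4 in the GFP group, and 0.634 for Col9a1, 0.726 for Col19a1 and 2.47 for Col10a1 in the dnMKL1 group. Col11a1 had 8.65 normalized counts in dnMKL1 library a, with the next library at 2.53. Col25a1 had 6.18 in the same library, also with the next at 2.53.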

How the results depend on the processing

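No paired analysis was possible because the deposited values carry no replicate number and the recovered libraries could not be matched to one. The planned count tests with other tools were not run, since values per library were not had for all genes. At an adjusted p under 0.01, 10 members were higher and 1 lower (fibrillar 3 higher, basement membrane 2 higher, other 4 higher and 0 lower). At an adjusted p under 0.1, 2 network genes were higher. With an absolute log2 fold change of at least 0.5, 1 member was lower, 0 of them basement membrane, and the processing genes split into 4 higher and 3 lower. With at least 1, 7 members were higher and 1 lower (fibrillar 1 higher, basement membrane 1 higher and 0 lower, other 4 higher), and the processing genes split into 2 higher and 0 lower. With a base mean of at least 10, 1 member was lower and 0 of the other class. With at least 100, 6 members were higher and 1 lower (basement membrane 1 higher, network 0 higher, other 1 higher and 0 lower), and 4 receptor, crosslinking and turnover genes were higher. No share of all genes is given for any of these thresholds and filters, so their counts have no matching background. With total-count scaling 26 members were higher and 0 lower (basement membrane 0 lower, network 2 higher, other 0 lower), 12 processing genes were higher and 3 lower, and 16 receptor, crosslinking and turnover genes were higher. Such scaling raises the log2 fold change of all genes, and the share of all genes called under it is not given here. With type VI counted as network, that class had 4 higher and the other class 5. Centring on the median fold change changed no member's call. Adjustment over all p-values lost the calls of Col11a1 and Col17a1. The median log2 fold change of the members was 0.65, 0.94 with total-count scaling and 0.47 where the base mean reached 100. Leaving out each library was added after seeing the data: 22 fits lost a call (Col11a1, Col14a1, Col17a1, Col22a1 and Col4a3), 5 gained one (Col27a1 and Col8a2), and the log2 fold change ran from -0.084 to 0.47 for Col11a2 and from -0.38 to 0.73 for Col9a3, neither called. With 16 reads in all, the counting interval of the ratio of Col11a1 ran from 2.03 to 556.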
